A study of Mus musculus with 2 samples.

Results

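The 6 genes described here are Foxq1, Foxf2 and Foxc1, which lie side by side on mouse chromosome 13, and Foxf1, Foxc2 and Foxl1, which lie side by side on chromosome 8. Methylated DNA of testis was captured with the methyl-CpG binding domain of MBD2, a protein that binds methylated CpGs, and sequenced in 1 Kaiso KO library and 1 wildtype library, both from C57BL/6 mice. Kaiso, the product of Zbtb33, is a transcriptional regulator with zinc fingers that recognise methylated CpGs. The Kaiso KO male was labelled as sterile and as offspring of generation 3, and its sample description also calls the testis wildtype, so each Kaiso KO value rests on the genotype label. The deposited table lists 100 bp windows of mm10, and those overlapping the span of a member gene plus 1 kb on each side were taken: 85 of 2537435 listed windows, 35 on chromosome 13 and 50 on chromosome 8. The genes were chosen because their ratios between these libraries were known, so the values below describe them and carry no test.

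Forkhead box (Fox) genes encode transcription factors that share a winged helix DNA-binding domain. Foxc1 and Foxc2 act in mesoderm, in somites, vessels, kidney and eye. Foxf1 and Foxf2 act in lateral plate mesoderm and in the mesenchyme of gut and lung, where, with Foxl1, they respond to Hedgehog signals from the epithelium. Foxq1 is known in mice for its role in hair shaft differentiation. The Foxc, Foxf and Foxl1 or Foxq1 genes of both clusters descend from an ancient linked group, and such developmental genes carry CpG islands that are mostly free of DNA methylation in normal tissues.

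The promoter sequences of Foxc1 and Foxf2 are shown because Kaiso is known to bind methylated CGCG and the unmethylated motif TCCTGCNA. Only these 2 of the 6 members had a promoter sequence in the reference used here. Each run covers 250 bases before and 50 after the gene's start on the plus strand, from RefSeq, build GRCm38.p6, with each CGCG in capitals. Foxc1 lies at chr13:31806396-31806695 and Foxf2 at chr13:31625566-31625865.
Foxc1: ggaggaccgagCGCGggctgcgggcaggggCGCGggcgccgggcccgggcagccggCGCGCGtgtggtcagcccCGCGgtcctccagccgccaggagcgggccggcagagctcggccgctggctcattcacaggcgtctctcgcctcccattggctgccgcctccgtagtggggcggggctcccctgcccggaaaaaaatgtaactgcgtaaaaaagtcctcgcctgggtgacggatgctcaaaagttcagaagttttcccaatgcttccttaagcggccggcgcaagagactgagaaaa
Foxf2: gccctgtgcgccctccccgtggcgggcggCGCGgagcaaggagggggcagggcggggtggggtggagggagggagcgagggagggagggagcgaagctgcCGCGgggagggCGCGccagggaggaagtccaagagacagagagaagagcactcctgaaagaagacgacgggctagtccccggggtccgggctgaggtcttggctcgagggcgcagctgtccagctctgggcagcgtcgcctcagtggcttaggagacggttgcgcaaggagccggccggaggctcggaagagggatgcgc
The Foxc1 promoter held 32 CpGs and 5 CGCG matches, overlapping ones counted separately, and the Foxf2 promoter held 27 CpGs and 3 such matches. CGCG, which reads the same on both strands, occurred in 38.0% of the 32851 promoters of this length, and 9.31% held at least as many matches as Foxc1. TCCTGCNA, searched on both strands, did not occur in either sequence and occurred in 4.96% of all promoters. No listed window overlapped either promoter. Among the windows taken for these genes, the nearest lay 196 bp below the Foxc1 sequence and 4036 bp above that of Foxf2. The promoter sequences of Foxq1, Foxf1, Foxc2 and Foxl1 were not available here.

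The Kaiso KO library held 98549116 reads and the wildtype library 87710791. The table holds windows with a deposited p-value below 0.05, at least 10 counts over both libraries and at least 1 CpG, so a window that is not listed was not shown to be unchanged, and listed ratios are pushed away from 1 by that selection. A window without a wildtype count needed at least 10 Kaiso KO counts to be listed. With 1 library per genotype there is no replicate check, and intervals (95%, Clopper-Pearson, on sums divided by 4 to approximate fragments) cover counting error only. Zbtb33 itself, on chromosome X, had 83 Kaiso KO and 303 wildtype counts over 16 listed windows, with a log2 ratio of -2.04 (-2.81 to -1.32). The assay reads captured DNA, so the tissue could not be checked against marker RNA.

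Summed over the gene span and its flanks, captured reads rose in the Kaiso KO library at 3 of the 6 genes, Foxc1, Foxf2 and Foxl1, and fell at Foxq1. Foxf1 and Foxc2 were not called. A gene was called when both libraries together held 20 fragments or more, the change was 2-fold or larger, and the interval did not include a ratio of 1. By this rule 9.63% of the 19238 protein-coding genes tested were higher and 5.68% lower, and since the members were chosen on this same ratio their counts of 3 higher and 1 lower are given as a description. The median log2 ratio was 1.10 over the 6 genes, with Foxc1 computed on a floor for its empty wildtype library, against 0.31 over all genes tested.

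Foxc1, needed for anterior eye, skull and heart development, spans 31806646 to 31810635 and had 339 Kaiso KO counts against 0 wildtype counts in its 17 listed windows. The Kaiso KO counts per window had a lowest value of 10, a median of 16 and a highest value of 65. Every listed window was thus empty in the wildtype library, a state found in 0.0988% of genes tested. Against a floor of 3 fragments (12 window counts) for the wildtype library, Foxc1 was 25.1-fold higher in the Kaiso KO library, a log2 ratio of 4.65. That value depends on the floor chosen, and the log2 interval of the counts started lower, at 4.32.

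The Foxc1 windows fell into 5 stretches. The stretch with the most Kaiso KO reads lay just past the upper end of the gene, from 31811301 to 31811700, where 4 adjacent windows with 5 to 18 CpGs held 16, 27, 48 and 65 Kaiso KO counts and 0 wildtype counts. Before the gene, 6 adjacent windows from 31805601 to 31806200 held 12 to 16 Kaiso KO counts each and 0 wildtype counts. Within the gene span only 6 windows were listed, with 86 Kaiso KO and 0 wildtype counts in all, so most of the Foxc1 signal came from its flanks, which held 253. The next listed window beyond the 1 kb limit, 66 bp on, had 69 Kaiso KO counts and 1 wildtype count, close to the last window inside the limit with 65 and 0.

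**Figure D1:**
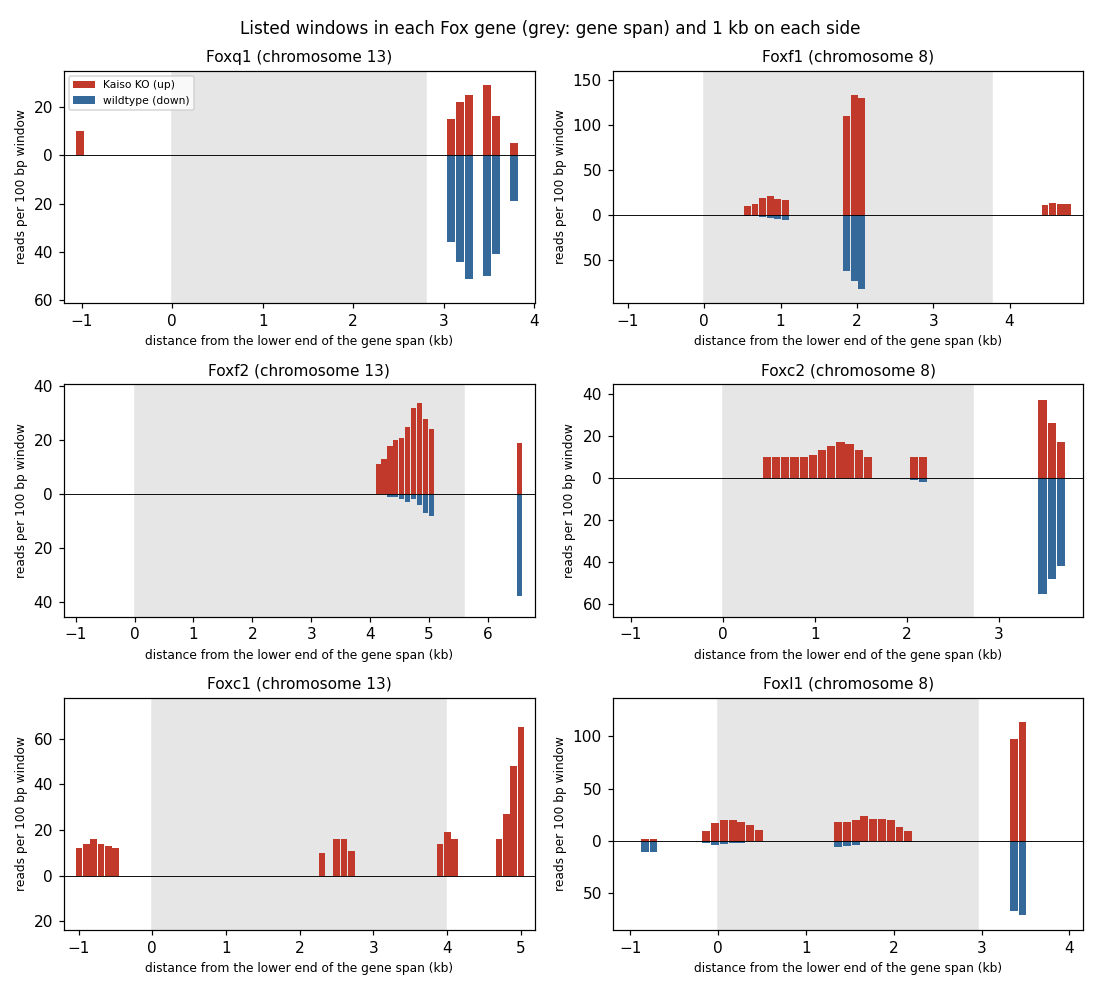
Reads per listed 100 bp window of the 6 Fox genes, with Kaiso KO counts drawn upward and wildtype counts downward against the distance from the lower end of the gene span in kb; grey marks the span, and windows not listed are blank. In Foxc1 the highest Kaiso KO count is 65 and no wildtype count is present, whereas in Foxf1 the tallest windows reach 134 Kaiso KO and 82 wildtype counts.

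Foxf2, a gene of palate, gut and brain vessel mesenchyme that spans 31625816 to 31631406, had 245 Kaiso KO and 66 wildtype counts in 11 listed windows. Its log2 ratio was 1.72 (0.92 to 2.60). Nearly all of the difference lay in 1 kb in the upper part of the gene, where 10 adjacent windows from 31629901 to 31630900 held 226 Kaiso KO and 28 wildtype counts, with 11 to 34 Kaiso KO and 0 to 8 wildtype counts per window. These windows were higher in the Kaiso KO library without exception, with a log2 ratio of 2.84 (1.71 to 4.22), although they held only 1 to 5 CpGs each. The last window, past the gene, went the other way, with 19 Kaiso KO and 38 wildtype counts and a single CpG. With flanks of 5 kb the ratio of Foxf2 was -0.10.

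Foxl1, a gene of gut mesenchyme that spans 121127685 to 121130644, had 491 Kaiso KO and 188 wildtype counts in 20 listed windows, and its log2 ratio was 1.22 (0.72 to 1.73). Within the span 15 of 15 listed windows were higher, with 266 Kaiso KO and 28 wildtype counts and a log2 ratio of 3.08 (1.96 to 4.45). They form a pair of stretches, the first of which also reaches just before the span. In the second, from 121129001 to 121129900, 9 windows held 10 to 24 Kaiso KO and 0 to 6 wildtype counts. The flanks brought the gene-wide ratio down. A pair of windows past the gene held 97 and 114 Kaiso KO counts against 67 and 71 wildtype counts, and a pair before it held 2 Kaiso KO counts against 10 wildtype counts each. Foxl1 fell short of 2-fold, at 0.94, when libraries were scaled by autosomal window counts, at 0.64 when scaled within CpG classes, at 0.55 with CpG-dense windows centred on 0 and at 0.88 with flanks of 5 kb.

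Foxf1, a gene of lung and gut mesenchyme and of vessels that spans 121084386 to 121088154, had 520 Kaiso KO and 234 wildtype counts in 13 listed windows, all of which were higher in the Kaiso KO library. Its log2 ratio of 0.98 (0.53 to 1.45) lay just short of a 2-fold change, so it was not called, although it passed at 1.02 with TMM and at 1.11 with the authors' scaling. The sum was carried by 3 windows near the middle of the gene, with 110, 134 and 131 Kaiso KO against 62, 74 and 82 wildtype counts and a log2 ratio of 0.61 (0.12 to 1.12). The 6 windows nearer the lower end held 10 to 21 Kaiso KO and 1 to 5 wildtype counts and had a log2 ratio of 2.43 (0.89 to 4.42). Past the gene, 4 windows held 11 to 13 Kaiso KO counts each and 0 wildtype counts.

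Foxc2, a gene of lymphatic vessel and somite development that spans 121116171 to 121118895, had 245 Kaiso KO and 148 wildtype counts in 17 listed windows. Its log2 ratio of 0.56 (-0.05 to 1.19) had an interval that includes 0. Yet the gene and its flank parted. In the span, 14 of 14 windows were higher, with 165 Kaiso KO and 3 wildtype counts and a log2 ratio of 5.61 (2.76 to 12.48), an interval that is wide because of the few wildtype counts. Of these, 12 adjacent windows over 1200 bp with 4 to 16 CpGs held 10 to 17 Kaiso KO counts and 0 wildtype counts, at or near the least that could be listed. Past the gene, 3 windows with 1 or 2 CpGs were lower in the Kaiso KO library, with 80 Kaiso KO and 145 wildtype counts and a log2 ratio of -1.03 (-1.89 to -0.20).

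Foxq1, spanning 31558170 to 31560976, was the only one of the 6 genes called lower. Its 7 listed windows held 122 Kaiso KO and 241 wildtype counts, with a log2 ratio of -1.15 (-1.83 to -0.50). No listed window lay inside the gene. The 6 windows past its upper end held 5 to 29 Kaiso KO and 19 to 51 wildtype counts with 1 to 3 CpGs each, and all were lower in the Kaiso KO library. The single window before the gene held 10 Kaiso KO counts and 0 wildtype counts, and the next listed one beyond the 1 kb limit held 11 and 0.

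**Figure D2:**
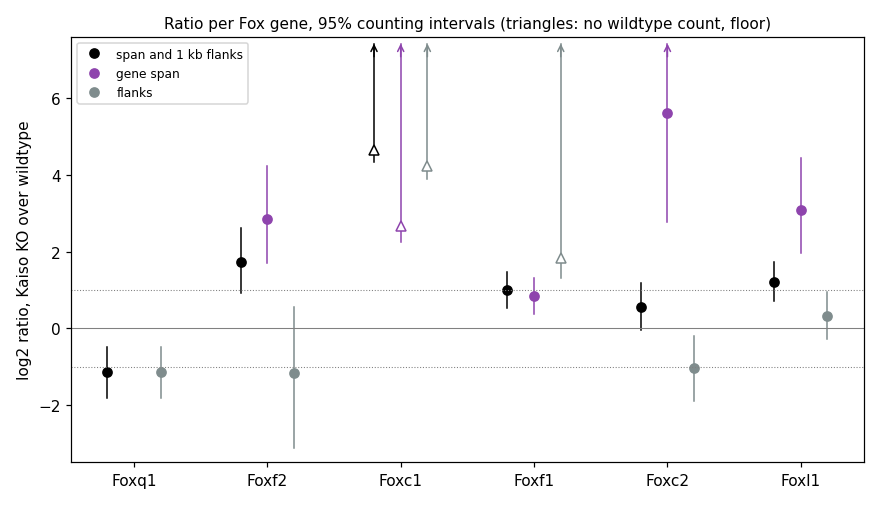
Log2 ratio of Kaiso KO over wildtype for each gene with its 1 kb flanks (black), for windows in the gene span (purple) and for windows in the flanks (grey), with 95% counting intervals. Open triangles mark ratios on the wildtype floor, where no wildtype count was present. Arrows mark intervals that run off the axis, and dotted lines a 2-fold change. In Foxf2, Foxc2 and Foxl1 the span lies above the flanks, at 2.84, 5.61 and 3.08 against -1.17, -1.03 and 0.32. In Foxf1 the span lies at 0.84 and the flanks, on the floor, at 1.83. In Foxc1 the values on the floor are 2.67 for the span and 4.23 for the flanks. Foxq1 has no listed window in its span.

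Over the 6 genes 73 of 85 windows (85.9%) were higher in the Kaiso KO library, beside 56.5% of all listed windows. Adjacent windows share fragments, and the genes were chosen on this ratio, so the share is a description. Windows that overlap a gene span were higher in 54 of 54 cases, and no share over the spans of all genes is set beside this count. These 54 windows had a median of 4 CpGs, and 91.7% of all listed windows with 4 CpGs were higher. The 12 lower windows lay in the flanks of Foxq1, Foxf2, Foxc2 and Foxl1 and held 1 to 3 CpGs. Their medians were 18 Kaiso KO and 41.5 wildtype counts, while the 73 higher windows had medians of 16 and 0. These windows were parted by the direction itself, so their counts only describe them.

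The direction was set beside that of windows with the same CpG content, since CpG-rich windows were higher in the Kaiso KO library genome-wide. With 5 or more CpGs, 34 of 34 windows of the Fox genes were higher, against 98.9% of 227655 listed windows. With 1 or 2 CpGs, 18 of 28 (64.3%) were higher, against 42.8% of 1685729. With 5 or 6 CpGs the median log2 ratio was 2.10 in the Fox genes, with empty windows at a floor of 3 counts, and 0.65 over all listed windows. With 7 to 10 CpGs it was 1.95 and 0.69, and with 11 or more CpGs 2.15 and 1.79. Where counts are few, only a larger ratio passes the authors' listing, and its part in these medians was not tested. The median counts of the Fox windows with 5 or more CpGs were 16 in Kaiso KO and 0 in wildtype, against 120 and 70 over all listed windows of that class.

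**Figure D3:**
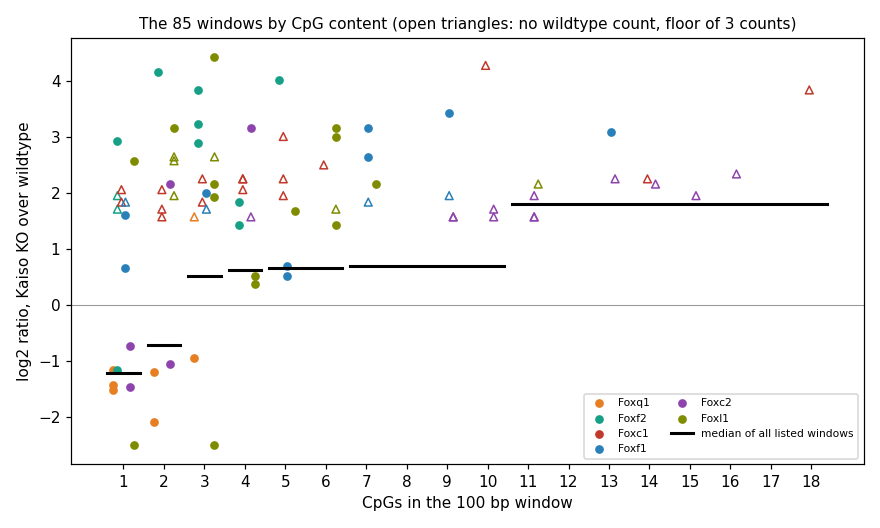
Log2 ratio of Kaiso KO over wildtype for each of the 85 windows against its number of CpGs, coloured by gene, with open triangles where the wildtype library had no count and a floor of 3 counts was used; black lines are medians of all listed windows per CpG class. Windows of 4 or more CpGs all lie above 0, and most of those with 5 or more lie above the genome-wide median of their class.

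A window empty in the wildtype library was listed only through 10 or more Kaiso KO counts, and the genes were chosen on this ratio. The shares of empty windows therefore only describe these genes. Empty windows numbered 42 of 85 (49.4%), against 1.24% of all listed windows, and each of the 6 genes had at least 1 of them. There were 17 in Foxc1, 12 in Foxc2, 6 in Foxl1, 4 in Foxf1, 2 in Foxf2 and 1 in Foxq1. With 11 or more CpGs 10 of 11 windows were empty in the wildtype library, against 11.3% of listed windows of that class, and with 1 CpG 5 of 16 were, against 1.00%. Of the 42 windows, 23 had 10 to 13 Kaiso KO counts.

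**Figure D4:**
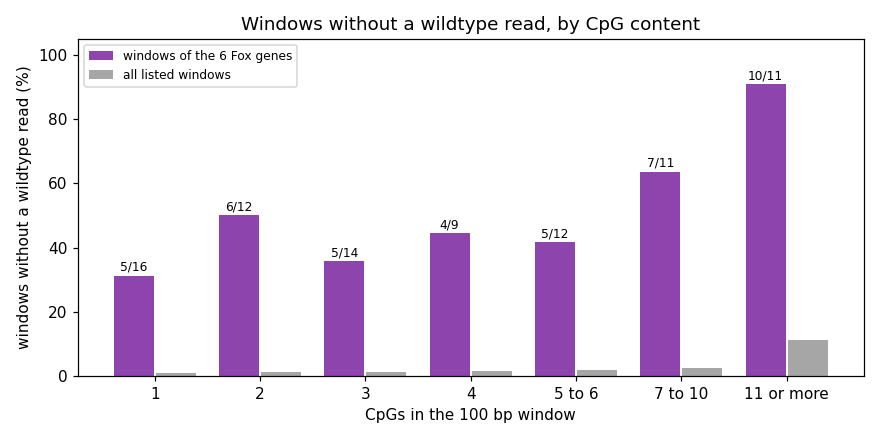
Percentage of windows without a wildtype read by the number of CpGs in the window, for the 6 Fox genes (purple, with counts) and for all listed windows (grey). The Fox gene share lies between 31.3% and 90.9% and the share of all listed windows between 1.00% and 11.3%. The Fox genes were chosen on the ratio of these libraries, so their shares only describe them.

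In CpG-dense windows capture was lower over these genes than over listed windows elsewhere, in both libraries. With 5 or more CpGs the median RPKM (reads scaled to window length and library reads) was 1.62 in the Kaiso KO and 0 in the wildtype library, whereas over all listed windows of that class it was 12.2 in the Kaiso KO and 7.98 in wildtype. With 1 CpG the median count in the Kaiso KO library was 16.5 in the Fox genes and 17 over all listed windows, and in the wildtype library 7.5 and 29. The relative methylation score, deposited by the authors without a stated scale, had medians of 0.0086 in Kaiso KO and 0 in wildtype over the Fox windows with 5 or more CpGs, and of 0.111 and 0.110 over all listed windows of that class. The mean RPKM over all windows of a gene ran in the Kaiso KO library from 1.46 in Foxc2 to 4.06 in Foxf1, and in wildtype from 0 in Foxc1 to 3.93 in Foxq1.

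The DNA between the genes was set beside the genes themselves, which, unlike it, were chosen on this ratio. The windows also differ in CpG content. Their mean was 3.71 CpGs in the genes and 2.22 between them on chromosome 13, and 5.88 and 2.71 on chromosome 8. The part of CpG content in the ratios below was not tested. On chromosome 13 the 3 genes with their flanks had 706 Kaiso KO and 307 wildtype counts and a log2 ratio of 1.03 (0.64 to 1.44), while the 356 listed windows between them had a ratio of 0.22 (0.15 to 0.29), and 51.7% of them were higher. On chromosome 8, where the genes lie 28.0 and 8.79 kb apart, the genes had 1256 Kaiso KO and 570 wildtype counts and a ratio of 0.97 (0.68 to 1.27), and the 93 windows between them 0.44 (0.34 to 0.54), with 78.5% higher. Those 93 windows held 8744 Kaiso KO and 5735 wildtype counts. Of them, 77 lay in the gene Mthfsd plus 1 kb, with 8313 and 5359 counts, so 0.44 mostly describes that gene. Windows empty in wildtype numbered 20 of 35 in the chromosome 13 genes and 25 of 356 between them. On chromosome 8 they numbered 22 of 50 in the genes and 2 of 93 between them.

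Of 9 neighbouring protein-coding genes, 1 was called, by the rule that called 9.63% of all genes tested higher and 5.68% lower. Hus1b, a paralogue of the checkpoint gene Hus1 that lies within the span of Exoc2 below Foxq1, had 526 Kaiso KO and 57 wildtype counts and a log2 ratio of 3.04 (2.25 to 3.94). Mthfsd, which lies between Foxf1 and Foxc2, had 8313 Kaiso KO and 5359 wildtype counts and a ratio of 0.47 (0.37 to 0.57). Its windows are the same ones counted above between the chromosome 8 genes. Gmds, next to Foxc1, had 11081 and 11098 counts and a ratio of -0.17 (-0.25 to -0.09). The other 6 neighbours had log2 ratios between -0.26 and 0.72.

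Among the 38 Fox genes elsewhere in the genome, 28 had the minimum of 20 fragments. Of these 7 were higher, 1 was lower and 20 were not called, so that 25.0% were called higher, against 9.63% of all genes tested. Their median was 0.34, against 0.31 over all genes tested. Among the higher ones, Foxs1 had a log2 ratio of 2.56 (2.03 to 3.14), Foxd2 of 2.89 (2.01 to 3.90), and Foxa3, a liver and gut endoderm gene that is also expressed in testis, of 2.10 (1.77 to 2.46). Foxi3, a gene of ectodermal organs, was the lower one, with 55 Kaiso KO and 122 wildtype counts (-1.32, -2.35 to -0.36). Foxp1 (0.20) and Foxn3 (0.22) stood near the median, and 6 genes, among them Foxa1 and Foxd3, had no listed window.

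**Figure D5:**
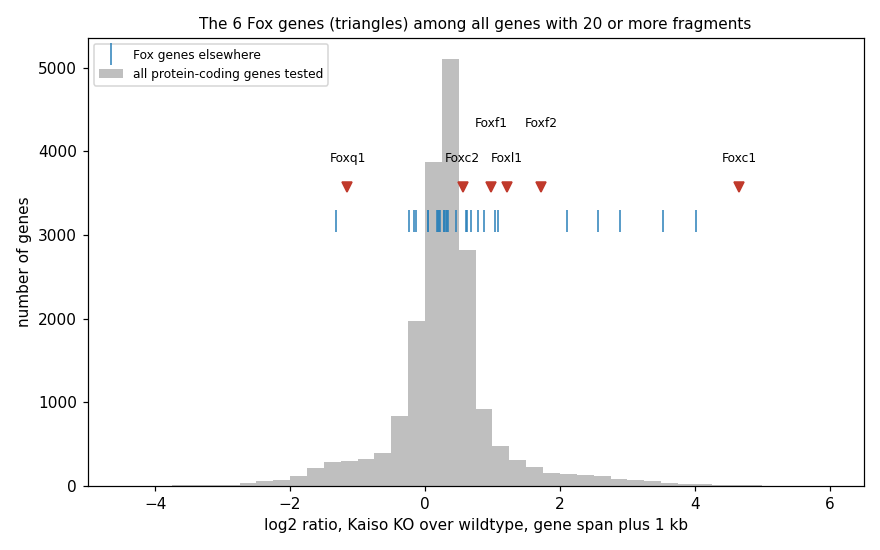
Number of protein-coding genes by log2 ratio of Kaiso KO over wildtype (gene span plus 1 kb, bins of 0.25, 20 or more fragments), with the 6 Fox cluster genes as triangles and 28 Fox genes elsewhere as ticks. Foxc1 lies at 4.65, a value on the wildtype floor, and Foxq1 at -1.15, while the 28 other Fox genes have a median of 0.34, against 0.31 over all genes.

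Of 18 genes of the Hedgehog pathway, the signal upstream of Foxf1, Foxf2 and Foxl1 in gut mesenchyme, 16 could be tested. Among these 16, 1 was higher (6.25%, against 9.63% of all genes tested) and 0 lower, with a median of 0.28, against 0.31. The higher one was Gli1, a transcription factor and target of the pathway, with 2259 Kaiso KO and 705 wildtype counts and a log2 ratio of 1.51 (1.27 to 1.76). Dhh, the Hedgehog ligand of Sertoli cells, had 367 Kaiso KO and 176 wildtype counts and was not called (0.89, 0.36 to 1.44). The genes most like the 6 members in mean RPKM of both libraries and in CpGs per window, by distance among all genes tested, were Lyl1, Sox9, Phlda2, Nyx and Nradd.

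Lists of germline, imprinted and somatic testis genes were read by the same call over gene spans plus 1 kb, by which 9.63% of all genes tested were higher, with a median of 0.31. Of 20 germline genes known to be silenced by methylation in somatic cells, 7 were higher, 0 lower and 13 not called. Their log2 ratios ran from -0.03 to 3.33 around a median of 0.70, with a summed level 1.46-fold higher in the Kaiso KO library. Of 19 genes with maternal imprints, which are unmethylated in sperm, 11 were higher, 0 lower and 8 not called, with a median of 1.18 and values from -0.01 to 3.94, with a summed level 1.71-fold higher. Of 13 somatic testis genes tested, 4 were higher, 0 lower and 9 not called, with a median of 0.38 and values from -0.24 to 4.40, with a summed level 1.30-fold higher. The part of the cell types present in the result for the Fox genes was not tested.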

How the data were processed

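Reads were aligned with Bowtie2 2.2.6 to mm10, and edgeR was used, per the submitters' processing notes. Column names follow the MEDIPS package, per the file headers. Each deposited count is the number of reads per 100 bp window, and the deposited RPKM divides it by window length and library size, which gave the library reads. The relative methylation score was the authors'. The deposited log2 fold change is wildtype over knockout, and its p-value equals the deposited adjusted p-value in each window. Another 10 columns of values per sample were not used.

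Ratios were Kaiso KO over wildtype per library reads. Window sums exceed the reads, so sums were divided by 4 to approximate fragments; read extension and duplicate handling are not given in the sources used here. A library at 0 was set to 3 fragments over a region, or 3 counts in a window. Gene spans came from GRCm38.p6, the assembly of mm10, and 1 kb was added on each side. With 1 library per genotype no test across genotypes was run. Calls were checked on simulated data with independent fragments. The simulation held neither the authors' listing nor variation between libraries, so it could not check the calls against these. Members, lists and thresholds were chosen with earlier results of these data known. All 6 members were named. The rule for further names took the 9 nearest protein-coding neighbours, up to 4 genes per direction of each list by the interval bound farthest from 0, and the 5 nearest genes by likeness. Not all of the neighbours and list genes so taken are named in the text. Foxp1, Foxn3, Foxa1, Foxd3 and Dhh were named after their values were seen. A gene that this rule takes is not reported here. Alternatives were 5 scalings, other flanks, window filters, thinning, divisors and folds, and, chosen after seeing the data, the median over windows. Scripts used Python 3.11.15, scipy 1.17.1, R 4.3.3 and edgeR 4.0.16 (TMM).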

Additional observations from a re-analysis of the deposited data

How the results depend on the processing

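No paired analysis was possible because each genotype has 1 library. Foxc1, Foxf2, Foxf1 and Foxl1 stayed above 0 and Foxq1 below 0 under each scaling, while Foxc2, not called at 0.56, had -0.11 when the median of CpG-dense windows (5 or more) was set to 0. That scaling gave log2 ratios of 3.99 for Foxc1, 0.32 for Foxf1, 0.55 for Foxl1, 0.37 for the chromosome 13 genes and 0.31 for the chromosome 8 genes. It moved the median of all genes by -0.67, autosomal counts by -0.27, CpG classes by -0.29 and the authors' scaling by 0.13. The higher share of called genes was 62.9% with library reads and 28.0%, 47.6%, 51.2% and 70.6% under these 4, in that order. Scaling within CpG classes gave 4.11 for Foxc1, 0.48 for Foxf1, 0.64 for Foxl1 and 0.56 for the chromosome 8 genes.

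The gene span alone gave 2.84 for Foxf2, 2.67 for Foxc1, 5.61 for Foxc2, 3.08 for Foxl1, 3.31 for the chromosome 13 genes and 1.60 for those of chromosome 8, and Foxq1 had no window. With 500 bp flanks Foxf2 had 2.84, Foxc1 3.08, Foxc2 5.61 and the chromosome 8 genes 1.30. With 5 kb Foxf2 turned to -0.10, Foxc1 had 2.12 and the chromosome 8 genes 0.55, and 1 member was called higher, as with a 4-fold rule. Of all genes tested, 7.17% were called higher with 5 kb and 3.66% with a 4-fold rule, against 9.63%. Windows of at least 20 counts gave 3.38 for Foxc1, -1.03 for Foxc2, 0.40 for chromosome 13 and 0.65 for chromosome 8; in Foxc2 it left only the 3 windows past the gene. Windows of 5 or more CpGs gave 4.002 for Foxf2 (1 window), 3.92 for Foxc1, 3.32 for Foxc2, 2.49 for Foxl1, 1.57 for chromosome 8 and 7.63 for chromosome 13, which rests on 1 wildtype count. Every second window gave 2.69 for Foxf2 and 3.48 for Foxc1, whose value on the wildtype floor falls with its Kaiso KO counts. The same holds for Foxc1 with the span alone, 500 bp flanks and both window filters, since its wildtype count was 0 throughout. The median over windows gave 2.89 for Foxf2, 2.25 for Foxc1, 1.83 for Foxf1, 1.57 for Foxc2, 2.15 for Foxl1, 2.05 for chromosome 13 and 1.93 for chromosome 8. For Foxc1, Foxc2, Foxf1 and chromosome 13 it fell on windows empty in the wildtype library, at the floor of 3 counts. For chromosome 8 it lay between a Foxl1 window with wildtype counts, at 1.92, and windows on that floor, at 1.95. Of the 44 windows with an exact binomial p under 0.001, 93.2% were higher. No share of all listed windows under that limit is set beside it. For the other values the cause was not tested. Of the members, 2 were called higher with autosomal counts, with the median of CpG-dense windows set to 0 and within CpG classes, against 3. Of all genes tested, 6.93%, 4.67% and 6.85% were called higher there, in that order, against 9.63%. With TMM, the authors' scaling, the span alone, 500 bp flanks and a 1.5-fold rule 4 members were called higher. There the share of all genes was 10.3%, 11.7%, 9.81%, 9.74% and 21.6%, in that order. The member counts of 2 and 4 are among the remaining 66 values, which stayed within their interval, or changed at most 1.5 times for counts.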
